A study of Drosophila melanogaster with 2 samples.

Results

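A set of 8 genes of promoter and insulator biology, Adf1, Chro, BEAF-32, Cp190, pzg, CTCF, su(Hw) and Dref, was examined for binding of the nuclear protein Dan in the Drosophila melanogaster embryo. They are 8 of 13968 protein-coding genes on the chromosome arms, and they were chosen by name after their peaks in these data were known: Adf1 and Chro carry some of the highest signals of the data set. The peaks at these genes are therefore described and not tested. Chromatin immunoprecipitation followed by sequencing (ChIP-seq) had been done on whole embryos, 0 to 8 h old, from flies carrying Dan fused to eGFP, with an antibody against GFP. These embryos form 1 group with 2 biological replicates, and no other genotype, age or treatment was compared. Whole embryos mix all cell types of these stages, so a signal cannot be placed in a cell type, and the tagged protein stands in for Dan. How deeply the libraries were sequenced is unknown, because no read counts come with the lists.

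The 8 genes encode proteins that sit at promoters and domain borders of the fly genome. Adf1 is a MADF-BESS transcription factor first known as an activator of Adh, and Dref binds the DNA replication-related element (DRE), TATCGATA, in the promoters of many housekeeping and replication genes. BEAF-32, CTCF and su(Hw) are DNA-binding insulator proteins, and Cp190 is the BTB zinc-finger protein that they bring to DNA. Chro (Chromator), a chromodomain protein, and pzg (putzig, also Z4), a zinc-finger protein, are found together at the interbands of polytene chromosomes. BEAF-32 recognises clusters of CGATA, a string that is also part of the DRE.

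Peaks were found at Adf1, Chro, Cp190 and pzg, and those at Chro, Cp190 and pzg lay at gene pairs whose transcripts run away from each other. The sequences between the paired start sites are shown because each peak covers a part of one. They are given 5′ to 3′ on the plus strand of the dm6 build, from the RefSeq Release 6 genome. Capitals mark CGATA in the Cp190 sequence and GCNGCNGC, a repeat of the kind Adf1 binds, in the pzg sequence. The capitals in the Cp190 sequence lie outside the Cp190 peak, just before its first base at 15275257. The Chro sequence, chr3L:22878985-22879088, lies between the start sites of Chro and Ssl1, and the Cp190 sequence, chr3R:15275242-15275521, between those of Cp190 and CG4338. The pzg sequence, chr3L:21285963-21286098, lies between those of CG12974 and pzg.
Chro and Ssl1: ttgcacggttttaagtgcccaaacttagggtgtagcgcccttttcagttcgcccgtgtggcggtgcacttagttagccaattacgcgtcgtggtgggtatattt
Cp190 and CG4338: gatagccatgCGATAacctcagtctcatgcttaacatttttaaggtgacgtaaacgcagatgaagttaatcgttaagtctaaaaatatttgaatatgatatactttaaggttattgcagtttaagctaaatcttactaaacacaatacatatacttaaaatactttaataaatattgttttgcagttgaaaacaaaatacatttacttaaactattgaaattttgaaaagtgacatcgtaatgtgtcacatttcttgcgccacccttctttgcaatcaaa
CG12974 and pzg: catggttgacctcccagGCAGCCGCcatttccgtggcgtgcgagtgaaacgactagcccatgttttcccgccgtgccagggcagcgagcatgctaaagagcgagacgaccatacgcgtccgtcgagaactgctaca
GC content was 51% between Chro and Ssl1, 28.9% between Cp190 and CG4338 and 60.3% between CG12974 and pzg. The summits were not at the same place within these pairs. The Cp190 summit lay inside the printed sequence, while those of Chro and pzg lay outside it, within transcribed 5′ sequence of Chro and of CG12974. The 30 bases at these summits were as follows, with no capitals since the summit base itself is not a motif.
Chro summit, chr3L:22878862-22878891: tcctaatattactgggagtgtattgcctgt
Cp190 summit, chr3R:15275417-15275446: tgttttgcagttgaaaacaaaatacattta
pzg summit, chr3L:21285818-21285847: tacaaatacaagcacaacaagtaagtattt

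By the rule used, a gene has a peak when a peak overlaps its annotated body or the 5000 bp on either side by at least 1 bp. In the authors' conservative list of 1170 peaks, 4 of the 8 genes had a peak, and 14.8% of all 13968 protein-coding genes did. The same 4 had one in the other thresholded list made from both replicates, where the share of all genes was 16.8%. They also had one in the list of replicate 1 (14.2% of all genes). In the list of replicate 2 (8.94% of all genes) 3 of 8 had one, and pzg had none. Since the genes were chosen with these peaks known, nothing can be read from the difference between their count and these shares. The bodies of the 8 genes span 2162 to 5821 bp with a median of 4174 bp, against a median of 2164 bp over all protein-coding genes. Each of the 4 genes had 1 conservative peak, as did 84.7% of the 2073 genes with any.

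**Figure D1:**
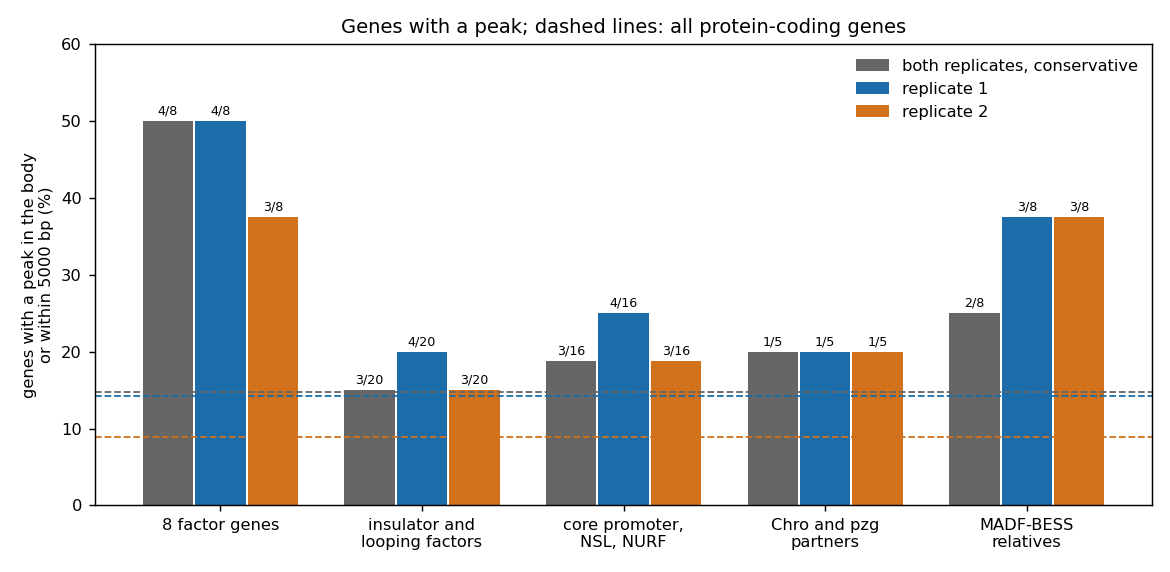
Share of genes with a peak in the gene body or within 5000 bp (percent), for the 8 factor genes and 4 lists of related genes, in the conservative list and in each replicate's own list. Numbers over the bars are genes with a peak out of genes listed, and dashed lines give the share of all 13968 protein-coding genes (14.8%, 14.2% and 8.94%).

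The peaks lay at different distances from the genes' own start sites. Chro, Cp190 and pzg had a conservative summit within 500 bp of an own start site, 3 of 8 genes. Of all protein-coding genes, 4.26% (595 genes) had one. Nothing can be read from this difference either, since the genes were chosen with their peaks known. Adf1 had its summit further inside the gene. BEAF-32, CTCF, su(Hw) and Dref had no conservative peak in the body or within 5000 bp. The plot of ranked regions along the 8 genes shows each of the 4 peaks standing above the other regions of its gene.

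**Figure D2:**
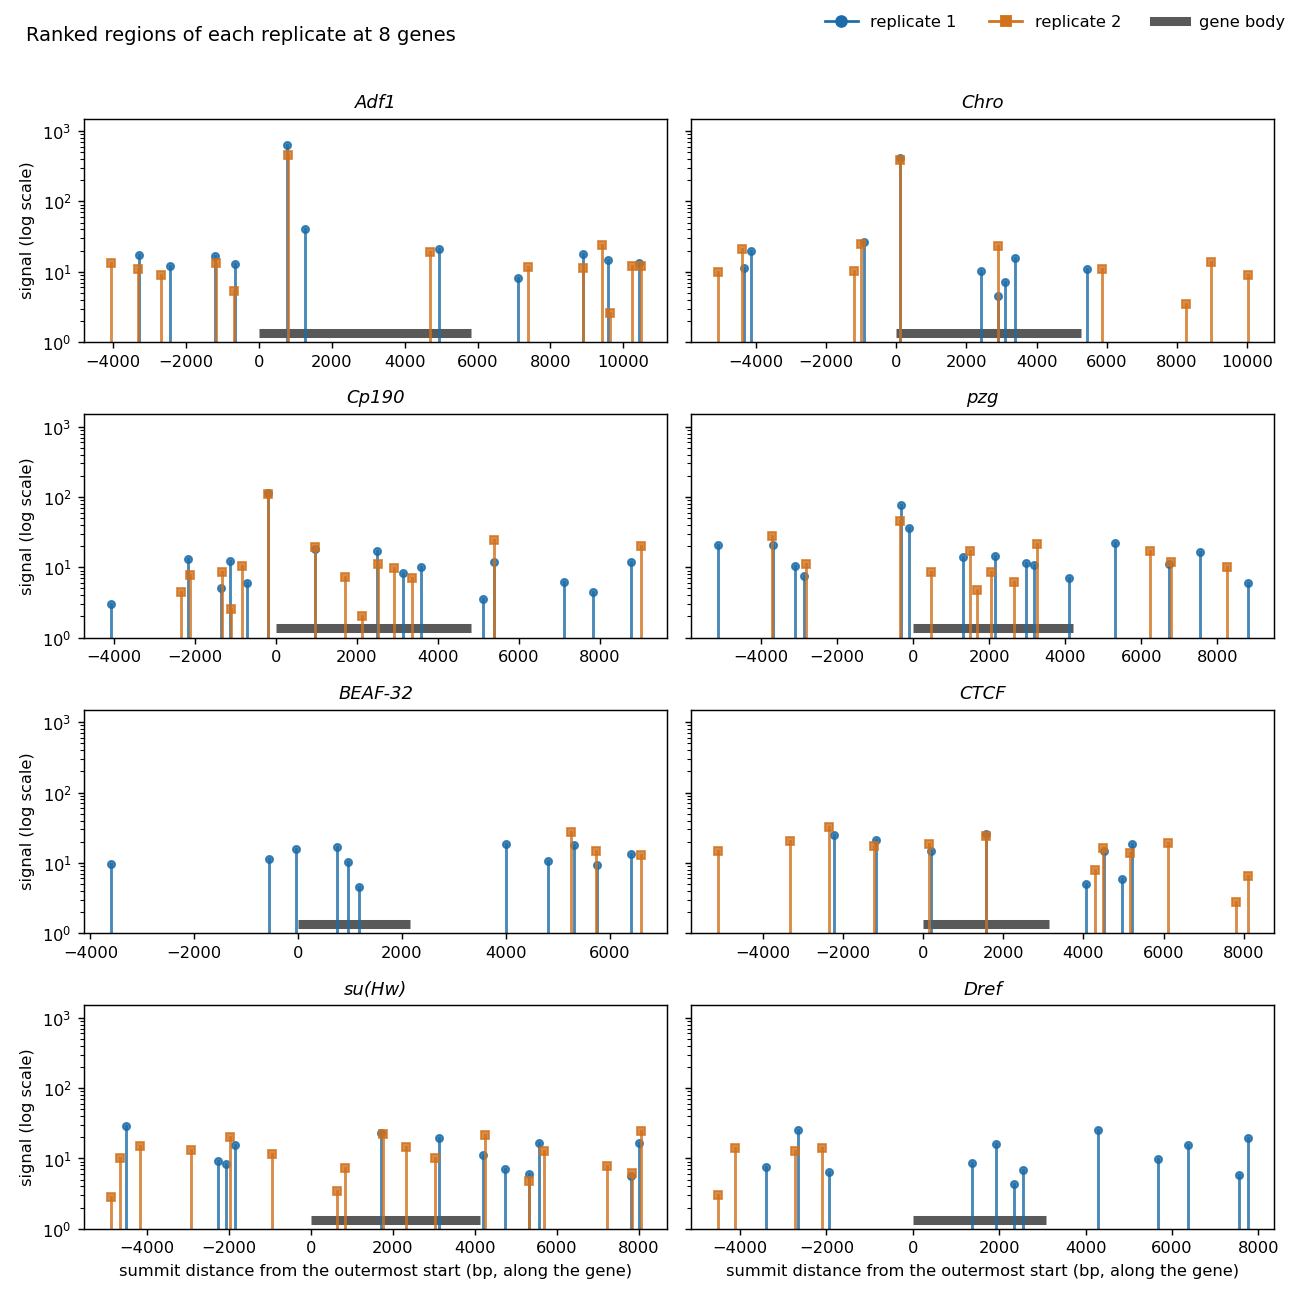
Signal (log scale, in the peak caller's units) of every ranked region of replicate 1 (circles) and replicate 2 (squares) at each gene, against the distance of its summit from the gene's outermost start site in bp along the gene; the grey bar is the gene body. Adf1, Chro and Cp190 each have 1 region above 100 in both replicates, and no region of BEAF-32, CTCF, su(Hw) or Dref reaches 33.

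Adf1 (FBgn0284249), the transcription factor gene, carried the highest signal of the conservative list. The gene spans 6662265 to 6668085 on the plus strand of 2R, and the peak lies at 6662904 to 6663207 in an intron, with its summit 800 bp downstream of the nearest Adf1 start site. Its signal, a value set by the authors' peak caller on a scale that is not stated, was 1079, rank 1 of 1170 conservative peaks. Among all 130105 ranked regions it was rank 2, so 1 region that is not in the conservative list was higher. The irreproducible discovery rate (IDR), which is low where a region ranks alike in both sets of calls, was 1.00e-05. The peaks at Adf1 and Chro had this same value in every ranked list, so it does not rank them apart.

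Both replicates placed Adf1 among their 3 strongest regions. Replicate 1 gave a signal of 637, rank 2 of its 109692 ranked regions. Replicate 2 gave 463, rank 3 of 111665. Signals of the replicates are not on a common scale and are compared by rank only. Their summits were 21 bp apart, where the median over 1059 conservative peaks with a region in both replicates was 23.0 bp, with quartiles of 8.00 and 43.5 bp. The next strongest signals at Adf1 were 39.5 in the ranked list of both replicates, 39.9 in replicate 1 and 23.8 in replicate 2. The regions of 39.5 and 23.8 overlap. Their summits lie 9537 and 9426 bp downstream of the outermost start site, past the end of the gene. The region of 39.9 is another, 1280 bp downstream of that start site.

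The list of replicate 1 held a second peak at Adf1. It lies at 6663387 to 6663702 on 2R, within the same gene and overlapping the non-coding RNA gene lncRNA:CR45128, and is the region of signal 39.9, rank 1476 of the 109692. It was in neither the conservative list nor the list of replicate 2. The summit of the main peak lay 952 bp from the start site of Dpit47, which encodes an Hsp90 co-chaperone and runs the other way. The start sites of Adf1 and Dpit47 are 147 bp apart, so the peak is on the Adf1 side and not between them.

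Chro (FBgn0044324), the interband chromodomain gene, spans 22873702 to 22878984 on the minus strand of 3L and had a peak at 22878750 to 22879017. Its signal was 787, rank 7 of 1170 conservative peaks and rank 11 of 130105 ranked regions, with an IDR of 1.00e-05. Replicate 1 gave 409, rank 12, and replicate 2 gave 387, rank 8. The peak thus stood near the top of both replicates, and the summits were 7 bp apart. The next strongest region at Chro had a signal of 45.2 in the ranked list of both replicates, 26.7 in replicate 1 and 25 in replicate 2.

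The Chro summit fell between start sites of Chro itself. It lies in the 5′ UTR, 107 bp downstream of the outermost start site, which 1 annotated transcript uses, and 109 bp upstream of the start site at 22878768, which 3 transcripts use. The last Chro start site, at 22878184, is 693 bp away. Ssl1, which encodes a subunit of the general transcription factor TFIIH, starts 212 bp from the summit on the other strand, and the outermost start sites of the pair are 105 bp apart. Which of these start sites is used in these embryos was not measured.

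Cp190 (FBgn0000283), the gene of the shared insulator cofactor, spans 15270432 to 15275241 on the minus strand of 3R. Its peak lies between genes at 15275257 to 15275606, with a signal of 224, rank 152 of 1170 conservative peaks and rank 166 of 130105 ranked regions, and an IDR of 0.000246. Replicate 1 gave 113, rank 234 of its ranked regions, and replicate 2 gave 109, rank 136. Both replicates had the peak in their own thresholded lists, and their summits were 10 bp apart. The next strongest signals at Cp190 were 36.1 in the ranked list of both replicates, 18.4 in replicate 1 and 24.2 in replicate 2. The regions of 36.1 and 18.4 overlap, within the gene. That of 24.2 lies elsewhere, 5384 bp downstream of the outermost start site and past the end of the gene. The conservative summit was 191 bp upstream of the outermost Cp190 start site and 90 bp upstream of that of CG4338. These start sites are 281 bp apart, on opposite strands. The non-coding gene asRNA:CR46081 starts 785 bp away.

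pzg (FBgn0259785), the gene of the zinc-finger partner of Chro, spans 21286099 to 21290310 on the plus strand of 3L and had the weakest of the 4 peaks. The peak at 21285658 to 21286007 had a signal of 118, rank 464 of 1170 conservative peaks and rank 519 of 130105 ranked regions, with an IDR of 0.00153. Replicate 1 gave 77.4, rank 457, and had it in its own list. Replicate 2 gave 45.4, rank 826 of 111665, with an IDR of 0.264, and did not. The peak at pzg was thus past the threshold in the conservative list and in replicate 1, but not in replicate 2 alone. The replicates' summits were 23 bp apart. The conservative summit lies in the 5′ UTR of CG12974, 129 bp from its outermost start site and 266 bp upstream of the single pzg start site, so it is inside the neighbour's transcript. The summits of replicates 1 and 2 lie in an intron of CG12974, 179 and 202 bp from that CG12974 start site. The next strongest region at pzg had a signal of 44.5 in the ranked list of both replicates, 35.8 in replicate 1 and 28.0 in replicate 2. The region of 35.8 overlaps the conservative peak, while those of 44.5 and 28.0 lie 3698 bp upstream of the pzg start site.

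**Figure D3:**
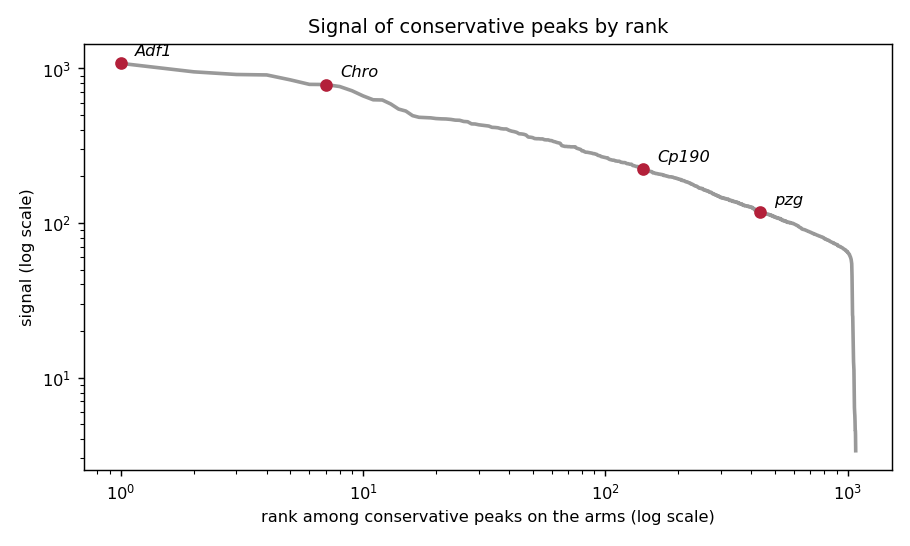
Signal of the 1078 conservative peaks on the arms against their rank (both axes on a log scale); dots mark the peaks at the 4 genes. On the arms Adf1 ranks 1, Chro 7, Cp190 143 and pzg 434, from a signal of 1079 down to 118, and the median of the conservative list is 104.

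The 4 peaks shared a gene arrangement, which strong peaks hold more often than others. These peaks were taken at coding genes chosen with their peaks known. The shares over all peaks are given as description, and nothing can be read from the difference. All 4 had protein-coding start sites of both strands, facing away from each other, within 1000 bp of the summit, compared with 19.2% of the 1078 conservative peaks on the arms and 30.1% of the 216 with the highest signals. Of the 8 genes, 6 have a coding start site on the other strand within 1000 bp upstream of an own start site, as do 36.2% of all protein-coding genes. The arrangement was not limited to genes with a peak, since su(Hw) and Dref have it too. The start site of su(Hw) is 500 bp from that of Polr2I, which encodes an RNA polymerase II subunit, and the start site of Dref is 84 bp from that of the ribosomal protein gene RpL13. BEAF-32 and CTCF have no such neighbour within 1000 bp.

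Summits within 500 bp of any start site were 3 of 4 at these genes and 40.9% of the conservative peaks on the arms. The exception was Adf1, which has the highest signal of the 4. The peaks at Adf1, Chro and Cp190 were in both replicates' own lists, 3 of 4, compared with 41.7% of conservative peaks and 98.6% of the 216 with the highest signals. In the 201 bp centred on the summit, GC content was 45.3% at Adf1, 38.8% at Chro, 28.9% at pzg and 25.4% at Cp190. Conservative peaks had a mean of 39.4% (SD 9.64 across 1078 peaks), and 2.32% of them were lower than Cp190. The 125043 weaker ranked regions had a mean of 47.6% (SD 7.73), higher than each of the 4.

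At the genes of the DNA-binding insulator proteins BEAF-32, CTCF and su(Hw), and at Dref, the strongest regions had signals near or under that of the median gene. Over the 12595 protein-coding genes with a ranked region, the median of the highest signal per gene was 48.2. CTCF (FBgn0035769, 3L, 7353578 to 7356713, minus strand) reached 48.7, at 7358898 to 7359247 in the coding sequence of pst, 2360 bp upstream of its own start site. su(Hw) (FBgn0003567, 3R, 14304455 to 14308589, minus strand) reached 42.5, within its own coding sequence. Both stood near or under that median. BEAF-32 (FBgn0015602, 2R, 14770469 to 14772630, plus strand) reached 42.5, in the coding sequence of the transcription factor gene kn, 4380 bp from its nearest start site. Dref (FBgn0015664, 2L, 9964147 to 9967229, minus strand) reached 39.9, between genes and 2655 bp upstream of its start site. In the other ranked list made from both replicates the strongest region at Dref was another, of signal 45.1 in its own coding sequence. The only region of BEAF-32 in that list had a signal of 24.1, in an intron of kn. The number of ranked regions at BEAF-32 and Dref depended on the list. In the ranked list used BEAF-32 had 3 and Dref 6, where the median over all genes was 14, and in replicate 1 they had 11 and 12, where the median was 12.

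The replicates did not single out the same strongest region at Dref, su(Hw), BEAF-32 or CTCF. At Dref the strongest region had a signal of 25.3 in replicate 1 and, at another position, 14.1 in replicate 2, at the 93.3 and 54.7 percentile of all regions of each. At su(Hw) it was 28.9 in the coding sequence of CG31321 in replicate 1 and 24.9 in that of red in replicate 2. The next strongest su(Hw) regions, of 23.4 and 22.6, overlapped. At BEAF-32 the strongest was 18.6 in the 3′ UTR of kn in replicate 1 and 27.4 in the coding sequence of kn in replicate 2. Replicate 1's next region there, of 17.8, overlapped replicate 2's strongest. At CTCF the strongest was 25.9 in its own coding sequence in replicate 1 and 32.2 in that of pst in replicate 2. The same pair of CTCF regions led in both replicates, in swapped order, with the next at 25.2 and 24.1. Each pair of strongest positions differed, in part by such near ties, and 0 of these regions was in a thresholded list.

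The order of the 8 genes by highest signal, among the 12595 genes, was Adf1 at rank 1, Chro at 25, Cp190 at 440 and pzg at 1115, followed by CTCF at 6058, su(Hw) at 8528, BEAF-32 at 8563 and Dref at 9505. Neighbouring genes share regions, so a rank can be that of a peak at another gene. In replicate 1 the ranks of the first 4 were 1, 34, 579 and 1011 of 13041 genes, and in replicate 2 they were 3, 19, 363 and 1499 of 12760. These 4 genes stood in the same order in both replicates. The other 4 did not: su(Hw) at 5058 led CTCF at 6776, Dref at 7142 and BEAF-32 at 11491 in replicate 1, while in replicate 2 CTCF at 4040 led BEAF-32 at 6728, su(Hw) at 8494 and Dref at 12452. The order among CTCF, su(Hw), BEAF-32 and Dref thus differed between the replicates, and 2 replicates give no further measure of spread.

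**Figure D4:**
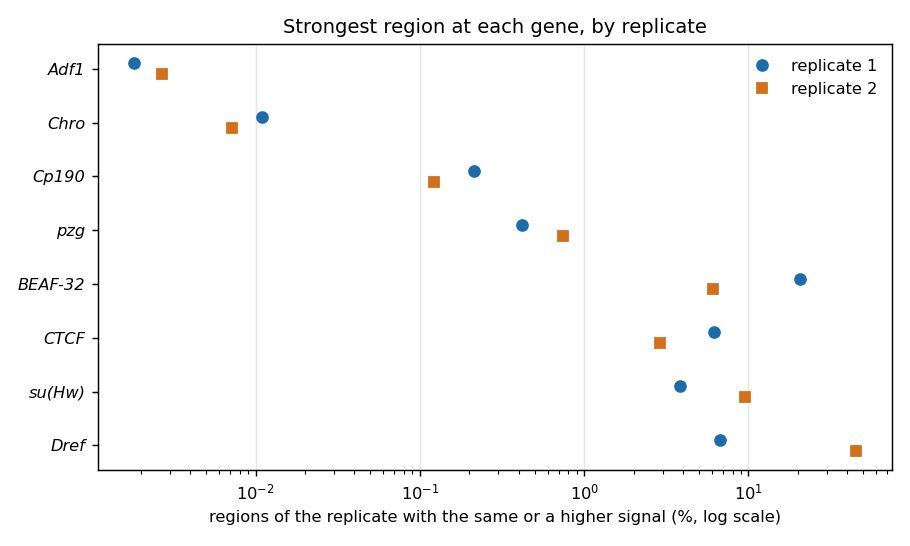
For the strongest region at each gene, the share of all ranked regions of the same replicate with the same or a higher signal (percent, log scale), in replicate 1 (circles) and replicate 2 (squares). Adf1, Chro, Cp190 and pzg lie between 0.00182% and 0.740% in both replicates, and the other 4 genes lie higher and change their order.

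At the thresholds, the gene just inside was pzg, with an IDR of 0.00153 where the lists end at 0.0100, and the gene just outside was CTCF, with an IDR of 0.0328 at the pst region in the ranked list used. The same CTCF region had an IDR of 0.618 in the other ranked list made from both replicates, where the lowest at CTCF was 0.0647 at another region. In the replicates' own ranked lists the region over pst had an IDR of 0.888 and 0.358. CTCF was therefore near the threshold in 1 pooled list and not in the replicates. In that list a threshold of 0.05 would add CTCF, to give 5 of 8 genes, where 26.1% of all protein-coding genes would then have a region. By distance, a window of 10000 bp in place of 5000 bp would add Dref, to give 5 of 8, where 22.5% of all protein-coding genes would have a peak.

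Recognition strings of the encoded proteins were searched on both strands within 100 bp of the summits, to describe whether the peaks at these genes hold sites of the same family of factors. CGATA, the BEAF-32 string, was found at Chro, with its centre 17 bp from the summit, and at pzg, 89 bp from it. The pzg match lies within 100 bp of the conservative summit only. It is farther than that from the summits of replicate 1, at 21285783, and replicate 2, at 21285760. CGATA was in 22.9% of the conservative peaks on the arms and 18.9% of weaker regions. CAGTG, a string taken from earlier results of these data, was found at pzg, and in 54.0% of peaks and 35.7% of weaker regions. The matches are shown with the string, or its reverse complement, in capitals, on the plus strand of dm6.
Chro CGATA, chr3L:22878880-22878909: tgtattgcctgtCGATAgctttaaactaac
pzg CGATA, chr3L:21285908-21285937: aaataattacgtTATCGtaatgaacggcaa
pzg CAGTG, chr3L:21285727-21285756: gtctacaaaacgCACTGttaattttgacat
The other 7 strings were in 0 of the 4 windows. They were the DRE, TATCGATA (0.742% of peaks), the Motif 1 core, GGTCACAC, bound by M1BP (0.928%), GAGAGA (11.3%), the su(Hw) core, GCATACTTT (0.557%), the CTCF core, AGGNGGC (6.49%), GCNGCNGC (7.88%) and the Zelda string, CAGGTAG (1.30%). At such shares, 0 of 4 says only that these letters are not in these windows. The pzg peak does hold GCNGCNGC farther from its summit, in the sequence printed between CG12974 and pzg.

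The promoters of the 8 genes, from 250 bases before to 50 after each start site, held some of these strings whether or not the gene had a peak. The DRE was in the promoters of 4 of 8 genes, Adf1, BEAF-32, Cp190 and CTCF, and in 10.2% of all 13968 genes. CGATA, which every DRE contains on both strands, was in 7 of 8 and in 53.1% of all genes, and su(Hw) was the gene without it. The Motif 1 core was in su(Hw), 5 bp after the start site, and in 8.70% of all genes. The DRE was thus found at Adf1 and Cp190, which had a peak, and at BEAF-32 and CTCF, which had none. It was not found within 100 bp of the summit at either of the first pair. At Cp190 it begins 4 bases before the outermost start site and 21 bases before the inner one, and at CTCF 21 bases before the start site. The matches are shown on the strand of the gene, with the string in capitals.
Cp190 outermost start, chr3R:15275227-15275256: tatcgcatggcTATCGATAgctgccgagcg
Cp190 inner start, chr3R:15274793-15274822: acacaggcgtaTATCGATAtttgcgagttg
CTCF start, chr3L:7356716-7356745: accaatcgaacTATCGATAgctggcggtac
su(Hw) start, chr3R:14308566-14308595: ctacatgcaacGGTCACACtgaattttcat
GAGAGA was in 0 of the 8 promoters and in 17.1% of all genes. GCNGCNGC was in the promoters of Chro and pzg (13.3% of all genes), the CTCF core in that of Chro (11.1%) and CAGTG in those of Chro, BEAF-32, su(Hw) and Dref (52.7%).

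Genes that work with the 8 were described from 4 lists of 49 genes, written with earlier results of these data known. A conservative peak was found at 9 of 49, or 18.4%, beside 14.8% of all protein-coding genes. By list the counts were 3 of 20 insulator and looping factors, 3 of 16 core promoter, NSL and NURF factors, 1 of 5 partners of Chro and pzg, and 2 of 8 MADF-BESS relatives of Adf1. Replicate 1's own list gave 12 of 49, or 24.5%, beside 14.2% of all genes, and replicate 2's gave 10, or 20.4%, beside 8.94%. Because earlier results were known when the lists were written, nothing can be read from these differences. A summit within 500 bp of an own start site was found at 2 of 49, hng3 and brwl, where 4.26% of all protein-coding genes had one.

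Several of the 9 genes had the peak at a neighbour. Caf1-55, a histone chaperone that is part of NURF, had a signal of 717, but the summit lay 127 bp from the start site of the mitochondrial ribosomal protein gene mRpS10 and 3962 bp from its own. The peak of row, a zinc-finger gene, with 416, lay 149 bp from mRpL41. Those of Rcd1 (240) and wds (144), NSL complex genes, lay nearest to CG13018 and egh, and that of pita (136), a zinc-finger insulator gene, 54 bp from the start site of wmd. brwl had 311 at 170 bp from its start site, in an exon of lncRNA:CR44149 and 65 bp from the start of that gene. hng3 had 3 listed peaks, of 108 in its intron, 12.3 in its coding sequence and 95.0 between genes at 4862 bp from its start site. Those of 108 and 12.3 overlap, and each replicate's own list has a single region there. JIL-1, the histone H3 kinase found with Chro, had 203 in its own intron, 7058 bp from its start site. mod(mdg4), the partner of su(Hw) and Cp190 at the gypsy insulator, had peaks of 167 and 67.3 in an intron that holds other genes, the first of them in the 5′ UTR of pre-mod(mdg4)-E and 62 bp from its start. The other 40 genes included 7 with no ranked region, and the highest signals of the remaining 33 ran from 28.0 to 81.8 with a median of 42.8. M1BP, with 57.9, and the Chro partner Skel (Skeletor), with 50.5, were among them. Trl, which encodes the GAGA factor, is the lowest of them at 28.0 in the ranked list used, but had an intron peak of signal 320, rank 70, in the other thresholded list made from both replicates. That Trl peak had a signal of 174, rank 83, in replicate 1's list and no region in the ranked list of replicate 2.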

How the data were processed

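The deposited files are lists of ChIP-seq regions of 2 separate biological replicates, per the labels, on the dm6 build. Per the labels, chromatin was sheared to 200 to 800 bp before the anti-GFP precipitation. The sources used here do not name the aligner or the peak caller and do not state the depth. The authors deposited per region a signal of unstated scale made against a control, a score that scales the logarithm of the IDR up to 1000, the −log10 of q, and a summit position. The −log10 q was used only as an alternative ranking. Ranked lists hold only regions matched between the sets of calls compared, and thresholded lists end at an IDR of 0.0100. The ranked list used here contains all 1170 conservative peaks. Replicates were compared by rank or percentile within their own lists.

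Genes, transcripts and start sites came from Ensembl release 115 and sequences from the RefSeq Release 6 genome, the assembly behind dm6. A gene counted as having a peak at an overlap of 1 bp or more with its body or 5000 bp on either side. No test was made, because the genes and the lists were chosen with earlier results of these data known. The named genes were all 8 genes, every gene with a start site within 1000 bp of a conservative peak of theirs, the related genes with such a peak, and at most 5 of each list without. The gene names kn, pst, CG31321, red, Polr2I, RpL13, lncRNA:CR45128, lncRNA:CR44149, pre-mod(mdg4)-E, egh, CG13018, wmd, mRpL41 and mRpS10 mark where a region lies or what a gene neighbours. Of the 49 related genes, 3 were matched through an older name. Alternatives were other windows, lists, thresholds, rankings and motif windows, and each replicate alone. The functions were tested on simulated data. Software was pandas 2.3.3 and numpy 2.4.6 under Python 3.11.15, with figures from matplotlib 3.10.9.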

Additional observations from a re-analysis of the deposited data

How the results depend on the processing

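The count of 4 of 8 genes with a peak moved by less than 1.5 times in 10 of 11 alternatives. With each peak given only to the gene with the nearest start site it was 2, Adf1 and Chro (6.19% of all genes, beside 14.8%), since the summits at Cp190 and pzg are nearer to CG4338 and CG12974. With an IDR of at most 0.001, a threshold added after the data were seen, it was 3, without pzg (6.59% of all genes). Each replicate alone gave 3 to 4. Related genes with a peak numbered 5 with a window of 1000 bp (7.83% of all genes), 14 at an IDR of at most 0.05 (26.1%) and 3 with the nearest start site only (6.19%), and 10 to 12 with each replicate alone, beside 9. The share of regions with the same or a higher signal was 0.00154% at Adf1, 0.00845% at Chro, 0.128% at Cp190 and 0.399% at pzg. Ranked by q it was 0.159% at each of Adf1, Chro and Cp190, which q does not rank apart since it ties 179 conservative peaks on the arms at its highest value. Among conservative peaks it was 0.0855%, 0.598%, 13.0% and 39.7% in the same order. With each replicate alone it ran from 0.00182% to 0.00269% at Adf1, 0.00716% to 0.0109% at Chro, 0.122% to 0.213% at Cp190 and 0.417% to 0.740% at pzg. Peaks with any of the 9 strings numbered 1 of 4 within 50 bp of the summit and 3 in the whole region, beside 2. Replicate support and the number near a start site were 3 of 4 under each alternative run for them. No paired analysis was possible because there is 1 group. The unknown depth limits what can be said of genes without a peak.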
